A study of Mus musculus with 12 samples.

Results

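Transcript levels of 8 genes for adhesion molecules by which erythroid stages are told apart (Cd44, Itga4, Itga5, Itgb1, Cd47, Cd24a, Cd9 and Cd36) were followed through GATA-1-driven maturation of mouse erythroid cells. The genes were taken by name from the 25097 genes of each deposited table, and all 8 were found. Of these, 6 had enough counts to be tested, and Itga5 and Cd36 did not.

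RNA was sequenced from G1E-ER-GATA-1 cells, a mouse erythroid precursor line that lacks endogenous GATA-1 and carries a GATA-1 fusion with the estrogen receptor's ligand-binding domain. Added beta-estradiol activates the fusion, after which the cells mature along the erythroid path. There were 12 libraries, 3 in each of 4 groups. The first group, mutant+E2+ALA, held Alas2 cis-element-mutant (double mutant) cells given 1 µM beta-estradiol and 1 mM 5-aminolevulinic acid (5-ALA) for 48 h. The group mutant+E2 held the same kind of mutant cells given estradiol alone for 48 h. The group WT+E2 held wild-type (WT) cells given estradiol for 48 h, and the group WT untreated held WT cells without it. All cells were grown with erythropoietin, conditioned medium containing Kit ligand, and puromycin. The product of Alas2 is the erythroid synthase of 5-ALA, from which heme is built, and 5-ALA in the medium bypasses that enzyme. No WT library was given 5-ALA, so a general effect of 5-ALA cannot be told apart from one that depends on the mutation. The altered elements, and the number of lines or clones behind the mutant libraries, are not given in the labels. No untreated mutant library was analysed here, so a difference between mutant and WT cells that existed before estradiol cannot be told apart from one that arose with it. No library was labelled as kept for 48 h without estradiol. In WT+E2 against untreated WT cells, GATA-1 activation therefore cannot be told apart from estradiol itself or time in culture. The labels do not say whether the replicates came from separate cultures, so p-values measure the spread between these libraries, which may be technical.

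As background, maturing erythroblasts sit around a central macrophage and later leave it. The beta1 integrins carry much of this attachment: the alpha4 chain with beta1 binds VCAM1 on the macrophage and fibronectin in the matrix, and the alpha5 chain with beta1 binds fibronectin alone of these. CD44, a receptor for hyaluronan, is abundant on early erythroblasts of mouse marrow and is lost step by step, which is why it is used with cell size to stage them. CD47 binds SIRP-alpha on macrophages and restrains engulfment, and in the red cell membrane it is held in the Rh and band 3 complex. CD24a, also called heat-stable antigen, is a small sialoglycoprotein on a lipid anchor, CD9 is a tetraspanin that associates with beta1 integrins, and CD36 is a scavenger receptor that marks erythroid progenitors in humans.

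The windows of 250 bases before the transcript start of Itga4, Cd44 and Cd47 are printed because these genes had the largest estradiol responses among the well-expressed members, Itga4 and Cd44 lower and Cd47 higher. The sequences are from RefSeq on GRCm38.p6, 5′ to 3′ on the gene's strand: Itga4 from chr2:79255176-79255425 on the plus strand, Cd44 from chr2:102901666-102901915 on the minus strand and Cd47 from chr16:49855404-49855653 on the plus strand. Capitals mark matches on either strand to the GATA words AGATAA or its variant TGATAA, and AGATAG or its variant TGATAG, and to CCNCNCCC, the letters of the CACC-type motif of KLF factors. Adjoining capitals can be overlapping matches. The RefSeq start of Cd47 lies inside the GENCODE gene, whose annotated start is further upstream.
Itga4: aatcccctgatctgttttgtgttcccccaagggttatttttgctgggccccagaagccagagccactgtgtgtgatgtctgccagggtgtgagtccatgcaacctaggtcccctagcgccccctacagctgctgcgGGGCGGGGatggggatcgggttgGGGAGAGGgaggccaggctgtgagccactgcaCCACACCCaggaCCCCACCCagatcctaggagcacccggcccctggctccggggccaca
Cd44: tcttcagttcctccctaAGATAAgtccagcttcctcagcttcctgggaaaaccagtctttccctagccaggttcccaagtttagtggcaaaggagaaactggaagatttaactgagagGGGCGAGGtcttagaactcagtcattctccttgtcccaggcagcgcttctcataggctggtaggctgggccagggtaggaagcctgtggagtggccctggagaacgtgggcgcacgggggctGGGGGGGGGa
Cd47: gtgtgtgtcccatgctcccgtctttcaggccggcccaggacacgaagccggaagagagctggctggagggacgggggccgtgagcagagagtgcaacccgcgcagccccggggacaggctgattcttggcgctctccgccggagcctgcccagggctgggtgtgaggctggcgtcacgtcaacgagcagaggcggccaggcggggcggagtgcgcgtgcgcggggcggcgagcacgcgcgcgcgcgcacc

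The Cd44 window held 1 of the GATA words, AGATAA, 233 bases before the start, and 3 matches to CCNCNCCC. The Itga4 window held no GATA word and 4 matches to CCNCNCCC, and the Cd47 window held neither. Of the other members with an entry, Itgb1 had 1 match to CCNCNCCC, Itga5 had 2, Cd9 had 4 and Cd36 had 0, and none of these 4 windows held a GATA word. Cd24a had no entry in the table. Over all 32851 windows of the same length, 26.5% held a GATA word and 45.9% held CCNCNCCC. These are matches of letters only and show no binding.

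The libraries held 20309085 to 43548387 expected counts, and 12115 genes were tested. Levels are given as CPM, counts per library total scaled by TMM, a scaling that sets the bulk of genes level between libraries. Alas2 averaged 12.3 ± 0.237 CPM in mutant+E2+ALA cells, 7.64 ± 2.20 CPM in mutant+E2 cells, 4293 ± 15.1 CPM in WT+E2 cells and 5.12 ± 0.767 CPM in untreated WT cells (SD, n = 3 each), which follows the labels. All 10 erythroid markers on a list reached 1 CPM in at least 1 group. Of the macrophage markers, 1 of 8 did, Cd68, and the list summed to 2.92 to 3.29, 2.66 to 3.13, 2.03 to 3.07 and 3.43 to 3.88 CPM in the same 4 groups, with Marco at 0. The granulocyte, lymphocyte and fibroblast lists summed to at most 2.34 CPM in any library.

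The first comparison asked how the adhesion genes moved with estradiol, which switches on GATA-1, in WT cells. Cd44 and Itga4 fell steeply and Cd47 and Cd24a rose. Counts of Cd9 also rose, but they were few and had been assigned to a retained-intron transcript, as described below. Itgb1 was slightly higher on the TMM scale, and also with TPM scaled by TMM. It was lower only on the TPM scale without that scaling. By the edgeR quasi-likelihood test with Benjamini-Hochberg adjustment over all tested genes (adjusted p below 0.05, here termed called), all 6 tested members were called, 4 higher and 2 lower. This stood beside 89.7% of all tested genes called, 43.3% higher and 46.4% lower, so the count says little about the members. The median log2 fold change of the 6 was 0.34, against -0.03 over all tested genes. In bulk RNA, fewer cells of a type and less RNA per cell cannot be told apart, here and below.

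Cd44 (ENSMUSG00000005087, chr2:102811141-102901665 in mm10, minus strand) had 6.04, 6.20 and 5.00 CPM in WT+E2 libraries, against 121, 120.3 and 117 CPM in untreated WT libraries. The groups lay far apart and every library of a group was close to the others. The fall was 20.5-fold, a log2 fold change of -4.36 (SE 0.0507, adjusted p = 5.56e-34 by edgeR). The SE given here and elsewhere is an approximation, the size of the log2 fold change divided by the root of the F value. Per length, Cd44 went down the ranking of transcripts too: its mean TPM exceeded that of 29.0% of tested genes in WT+E2 cells and 76.5% in untreated WT cells.

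Itga4 (ENSMUSG00000027009, chr2:79255426-79333123, plus strand), the alpha4 chain, had 49.4, 50.2 and 54.6 CPM in WT+E2 libraries, against 264, 269 and 271 CPM in untreated WT libraries. No library of one group came near the other. Itga4 fell 5.23-fold (log2 -2.39, SE 0.0320, adjusted p = 2.38e-32 by edgeR). Its exons overlap those of Cerkl on the opposite strand, and whether strand was used in counting is not given in the sources used here, but Cerkl itself was at or below 0.18 CPM in every library.

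Itgb1 (ENSMUSG00000025809, chr8:128685654-128733200, plus strand), the beta1 chain shared by the alpha4 and alpha5 integrins, had 405, 411 and 409.8 CPM in WT+E2 libraries, against 353, 348 and 364 CPM in untreated WT libraries. The groups did not overlap, but the difference was small, log2 0.20 (SE 0.0216, adjusted p = 6.79e-10 by edgeR). The sign turned to -0.06 on the log2(TPM + 1) scale, where the median of all genes was itself at -0.23. With TPM scaled by TMM the difference was 0.27 (adjusted p = 2.67e-07 by limma). The beta1 chain thus kept nearly its level while its alpha4 partner was several-fold lower.

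Cd47 (ENSMUSG00000055447, chr16:49800533-49915010, plus strand) had 605, 612 and 613 CPM in WT+E2 libraries, against 228, 229 and 232 CPM in untreated WT libraries. It rose 2.66-fold (log2 1.41, SE 0.0232, adjusted p = 3.96e-30 by edgeR), with all libraries of each group close together. Cd24a (ENSMUSG00000047139, chr10:43578284-43584265, plus strand) had 365, 365 and 363 CPM in WT+E2 libraries, against 258, 256 and 266 CPM in untreated WT libraries. Its rise was 1.40-fold (log2 0.49, SE 0.0222, adjusted p = 1.13e-18 by edgeR). Both genes were called in this direction under every alternative tried.

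Cd9 (ENSMUSG00000030342, chr6:125460266-125494791, minus strand) was near the detection limit, with 1.79, 2.55 and 2.21 CPM in WT+E2 libraries and 0.700, 1.35 and 0.539 CPM in untreated WT libraries. The groups did not overlap, and the test called it higher (log2 1.42, SE 0.348, adjusted p = 0.0013 by edgeR). These values rest on 20.62 to 75.2 expected counts per library over all 12 libraries. In 11 of the 12 libraries the deposited length of Cd9 was exactly 786 bases, the length of the annotated retained-intron transcript, while the main coding transcript has 1228 bases. The counts had therefore been assigned to the retained-intron form, and they do not measure the coding mRNA. An annotated gene on the opposite strand, Gm26728, overlaps Cd9 exons.

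Itga5 (ENSMUSG00000000555, chr15:103344286-103366763, minus strand) and Cd36 (ENSMUSG00000002944, chr5:17781690-17888801, minus strand) were hardly detected in any group. Itga5 had 1 expected count in 3 of the 12 libraries, 1 each in mutant+E2, WT+E2 and untreated WT cells. Cd36 had 1 expected count in 1 library, of WT+E2 cells. A floor of 3 counts per library corresponded to 0.0681 to 0.146 CPM, so neither gene could be compared between groups at this depth. Against the floor of Itga5 in the same library, the TPM of Itga4 was at least 643-fold higher in each mutant+E2+ALA library, at least 727-fold in mutant+E2, at least 192-fold in WT+E2 and at least 1021-fold in untreated WT libraries.

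**Figure D1:**
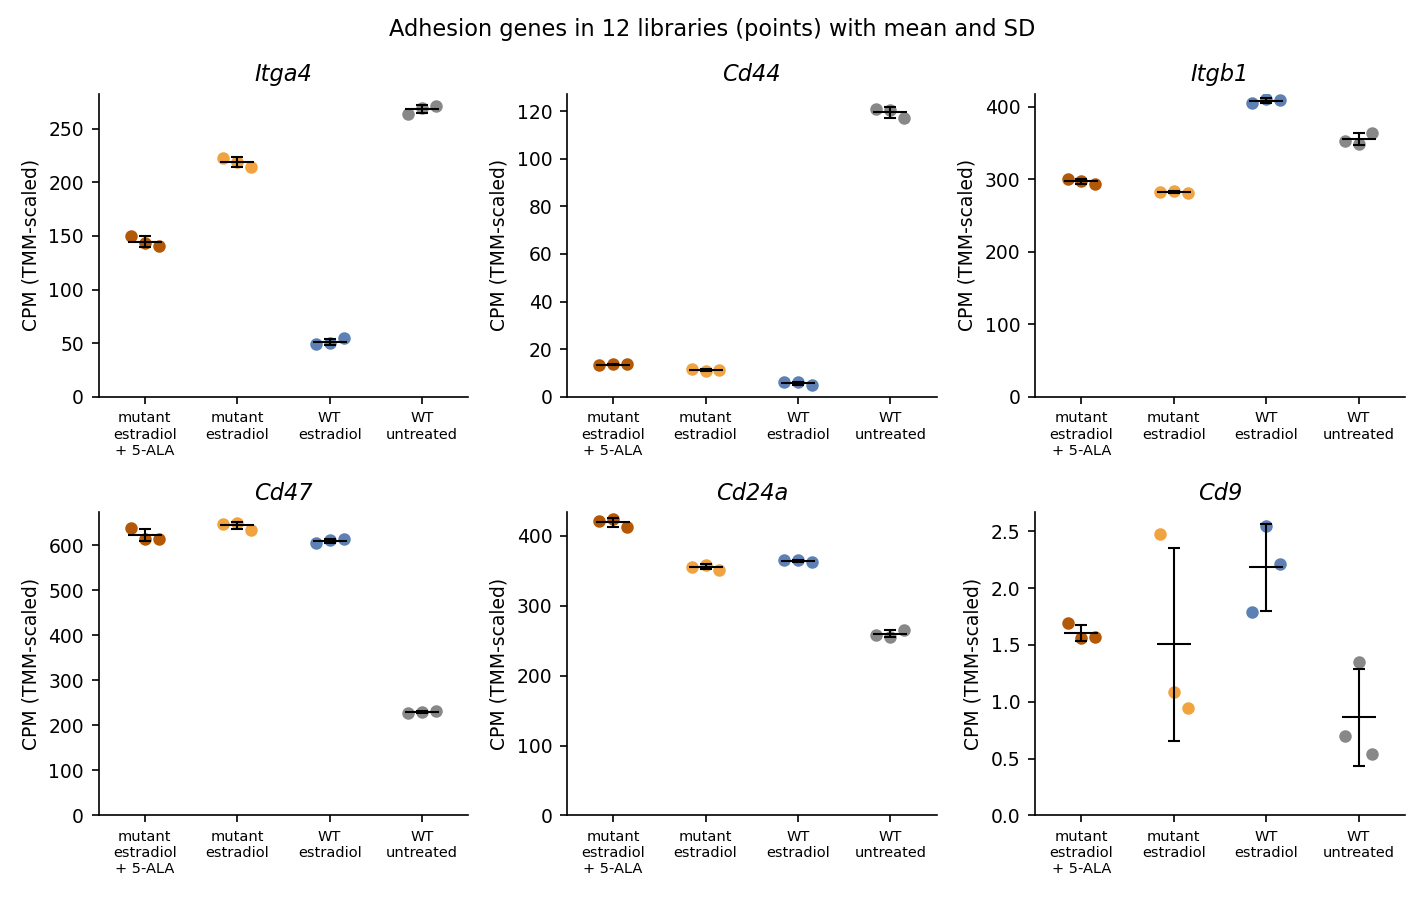
TMM-scaled CPM of the 6 tested members by library (points), with the group mean and SD (bars, n = 3 libraries per group); each panel has its own linear axis from 0. Itga4 lies near 50 CPM in WT+E2 cells and above 140 CPM in the other 3 groups, while Cd44 is below 14 CPM in every estradiol group.

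The mast cell and basophil list moved with the estradiol contrast. Of its 7 genes, 3 reached 1 CPM, and Mcpt8, Fcer1a and Tpsb2 were at 0 in all libraries. The list summed to 2.70 to 3.26 CPM in WT+E2 libraries and 139 to 155 CPM in untreated WT libraries, nearly all of the untreated sum being Cpa3, and its part in the results for Cd44 and Itga4 was not tested. The sum of the megakaryocyte list moved the other way, with 6 of 9 genes reaching 1 CPM and Gp1bb at 0, but its genes did not move together. Its sum was 725 to 742 CPM in mutant+E2+ALA libraries, 425 to 441 CPM in mutant+E2, 1851 to 1874 CPM in WT+E2 and 188 to 194 CPM in untreated WT libraries. Most of that sum in the estradiol groups was Itgb3, an integrin beta chain, with a mean of 1784 CPM in WT+E2 and 87.9 CPM in untreated WT cells. Pf4 averaged 2.37 CPM in WT+E2 and 28.4 CPM in untreated WT cells, and Itga2b 21.2 CPM in WT+E2 and 60.8 CPM in untreated WT cells, the same direction as the mast cell list. The list's part in the results was not tested.

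The second comparison asked which adhesion genes differed when the estradiol-treated cells carried the Alas2 mutation. Itga4 was higher in mutant cells by several fold, Cd44 was 1.92-fold higher, and Itgb1 was lower. Of the 6 tested members, 4 were called, 3 higher and 1 lower, beside 68.8% of all tested genes (35.1% higher, 33.6% lower). The median log2 fold change of the 6 was 0.02, against -0.01 over all tested genes.

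Itga4 had 223, 219 and 214 CPM in mutant+E2 libraries, against 49.4, 50.2 and 54.6 CPM in WT+E2 libraries. Every mutant library was far above every WT library, and the level was nearer to that of untreated WT cells than to that of WT+E2 cells. The difference was 4.27-fold (log2 2.09, SE 0.0324, adjusted p = 4.07e-29 by edgeR). Against untreated WT cells, a contrast added after the values were seen, mutant+E2 cells were lower by 1.23-fold (log2 -0.29, SE 0.0273, adjusted p = 3.87e-11 by edgeR).

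Cd44 did not share this pattern. It had 11.7, 10.9 and 11.1 CPM in mutant+E2 libraries, against 6.04, 6.20 and 5.00 CPM in WT+E2 libraries, a log2 fold change of 0.94 (SE 0.0693, adjusted p = 5.37e-13 by edgeR). The mutant libraries were all higher, yet they stayed 10.7-fold below untreated WT cells in the added contrast (log2 -3.42, SE 0.0441, adjusted p = 9.15e-33 by edgeR).

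Itgb1 had 283, 284 and 281 CPM in mutant+E2 libraries, against 405, 411 and 409.8 CPM in WT+E2 libraries. The groups did not overlap and the mutant cells were lower by 1.45-fold (log2 -0.53, SE 0.0219, adjusted p = 6.24e-19 by edgeR). The 2 chains of the alpha4 beta1 integrin thus differed from WT in opposite directions.

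Cd47 had 648, 649.5 and 634 CPM in mutant+E2 libraries, against 605, 612 and 613 CPM in WT+E2 libraries. The groups did not overlap, but the difference was small, log2 0.08 (SE 0.0224, adjusted p = 0.00273 by edgeR), and it was -0.08 when TPM values were scaled by TMM. Cd24a had 356, 359 and 352 CPM in mutant+E2 libraries and 365, 365 and 363 CPM in WT+E2 libraries. Its difference, log2 -0.04 (SE 0.0220), was not called (adjusted p = 0.159 by edgeR) and it was 0.16 on the log2(TPM + 1) scale, where the median of all genes was 0.12; it was called under 5 of 16 alternatives. Cd9 had 2.48, 1.09 and 0.943 CPM in mutant+E2 libraries and 1.79, 2.55 and 2.21 CPM in WT+E2 libraries. The groups overlapped through 1 mutant library and the difference was not called (log2 -0.64, SE 0.326, adjusted p = 0.0958 by edgeR). Without that library, replicate 1, it was called (log2 -1.06, adjusted p = 0.000562 by edgeR), the lowest of adjusted p-values that reached 0.315 over the alternatives.

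**Figure D2:**
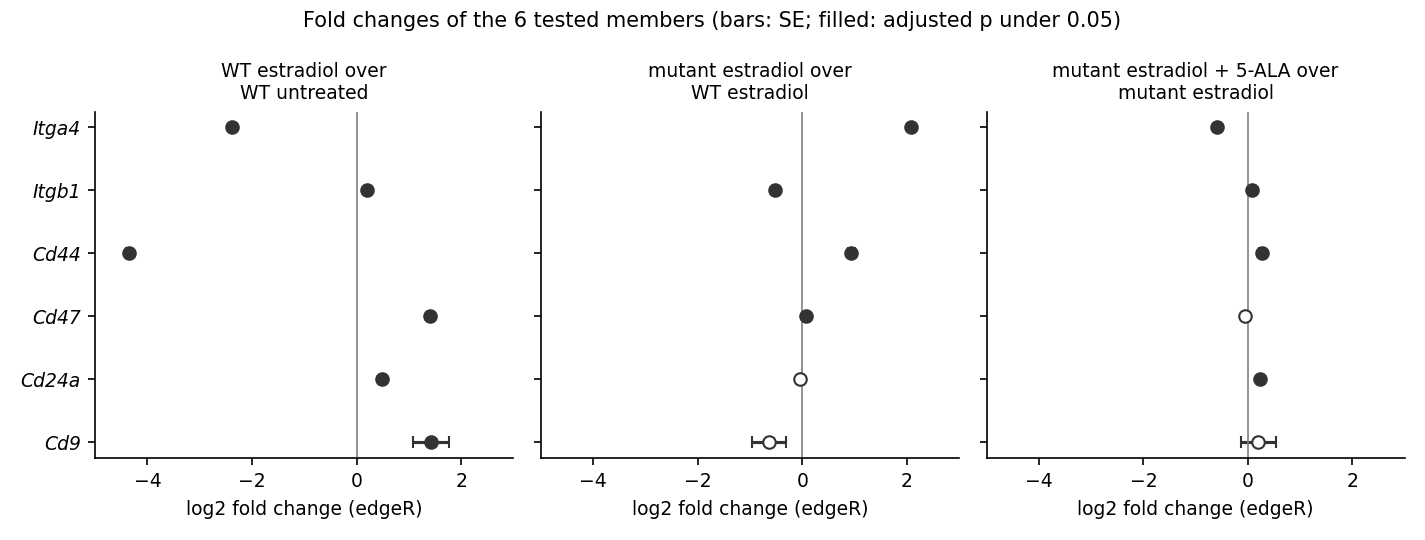
Log2 fold changes of the 6 tested members from edgeR in 3 comparisons, each with the group named first over the second; bars are the SE and filled points had an adjusted p below 0.05. Itga4 lies at -2.39, 2.09 and -0.60, and among small differences the sign turned on the TPM scale for Itgb1 (left and right panels) and Cd24a (middle panel) and on the TMM-scaled TPM scale for Cd47 (middle and right panels).

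A further comparison asked what 5-ALA changed in the mutant cells. Itga4 was lower with 5-ALA, and Cd24a and Cd44 were slightly higher. Of the 6 tested members, 4 were called, 3 higher and 1 lower, beside 42.6% of all tested genes (21.6% higher, 21.0% lower). The median log2 fold change of the 6 was 0.14, against 0.01 over all tested genes.

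Itga4 had 150.2, 143 and 141 CPM in mutant+E2+ALA libraries, against 223, 219 and 214 CPM in mutant+E2 libraries. The groups did not overlap, and the level was 1.51-fold lower with 5-ALA (log2 -0.60, SE 0.0286, adjusted p = 1.55e-16 by edgeR). Against WT+E2 cells, the mutant+E2+ALA libraries were still 2.82-fold higher (log2 1.50, SE 0.0333, adjusted p = 4.78e-25 by edgeR), with all libraries of the first group above all of the second. These comparisons share the mutant+E2+ALA libraries. Itga4 was called in the same direction under every alternative tried in the 4 comparisons.

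Cd44 had 13.2, 13.7 and 13.6 CPM in mutant+E2+ALA libraries, against 11.7, 10.9 and 11.1 CPM in mutant+E2 libraries. The groups did not overlap (log2 0.27, SE 0.0576, adjusted p = 0.00033 by edgeR). The call was lost on the log2(TPM + 1) scale (log2 0.15, adjusted p = 0.0614 by limma, with 0.000284 to 0.0709 over all alternatives). On that scale the median of all genes was -0.15. Both Cd44 and Cd24a, described next, were called under 13 of 15 alternatives. Cd24a had 421, 425 and 413 CPM in mutant+E2+ALA libraries, against 356, 359 and 352 CPM in mutant+E2 libraries. It was 1.18-fold higher with 5-ALA (log2 0.24, SE 0.0219, adjusted p = 4.07e-10 by edgeR), a call that was also lost on the log2(TPM + 1) scale (log2 0.03, adjusted p = 0.233 by limma, with 3.81e-23 to 0.235 over all alternatives), where the median of all genes was -0.15.

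The other members moved little. Itgb1 had 301, 297 and 294 CPM in mutant+E2+ALA libraries, against 283, 284 and 281 CPM in mutant+E2 libraries (log2 0.07, SE 0.0220, adjusted p = 0.00795 by edgeR), and this small difference was -0.11 on the log2(TPM + 1) scale. It was no longer called without mutant+E2+ALA replicate 2 (adjusted p = 0.0545 by edgeR, with 0.00204 to 0.207 over all alternatives). Cd47 had 637, 614 and 614 CPM in mutant+E2+ALA libraries and 648, 649.5 and 634 CPM in mutant+E2 libraries. Its groups overlapped (log2 -0.05, SE 0.0224, adjusted p = 0.0708 by edgeR), with 0.02 on the TMM-scaled TPM scale, and it was called under 5 of 15 alternatives. Cd9 had 1.69, 1.56 and 1.57 CPM in mutant+E2+ALA libraries and 2.48, 1.09 and 0.943 CPM in mutant+E2 libraries, with overlapping groups (log2 0.20, SE 0.336, adjusted p = 0.682 by edgeR).

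Mutant cells given 5-ALA were also set against WT+E2 cells directly. Of the 6 tested members, 4 were called, 3 higher and 1 lower, beside 62.3% of all tested genes (33.3% higher, 29.0% lower), with a median log2 fold change of 0.11, against 0.01 over all tested genes. Besides Itga4, Cd44 was 2.32-fold higher (log2 1.21, SE 0.0678, adjusted p = 1.44e-15 by edgeR) and Cd24a was 1.15-fold higher (log2 0.20, SE 0.0219, adjusted p = 3.39e-09 by edgeR). Itgb1 was lower by 1.37-fold (log2 -0.46, SE 0.0218, adjusted p = 3.33e-17 by edgeR). Cd47 was not called (log2 0.03, SE 0.0224, adjusted p = 0.286 by edgeR) and had -0.06 on the log2(TPM + 1) scale. Cd9 was not called (log2 -0.44, SE 0.320, adjusted p = 0.253 by edgeR).

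The treated mutant groups were also set against untreated WT cells, a contrast added after the values were seen. In mutant+E2+ALA cells all 6 tested members were called, 3 higher and 3 lower, beside 88.3% of all tested genes (42.9% higher, 45.5% lower), with a median log2 fold change of 0.22 against -0.01 over all tested genes. In mutant+E2 cells 5 were called, 2 higher and 3 lower, beside 88.1% (42.5% higher, 45.5% lower), with a median of 0.08 against -0.02. The 3 lower members were Cd44, Itga4 and Itgb1 in both. Itga4 was lower by 1.85-fold in mutant+E2+ALA cells (log2 -0.89, SE 0.0282, adjusted p = 9.85e-23 by edgeR), Cd44 by 8.86-fold (log2 -3.15, SE 0.0432, adjusted p = 4.21e-32 by edgeR) and Itgb1 by 1.19-fold (log2 -0.26, SE 0.0218, adjusted p = 4.83e-12 by edgeR). Cd47 was 2.71-fold higher in mutant+E2+ALA and 2.81-fold higher in mutant+E2 cells (log2 1.44 and 1.49, adjusted p = 2.48e-30 and 1.06e-30 by edgeR), near the rise in WT cells given above. These contrasts share the untreated WT libraries with the first comparison and were not run under the alternatives.

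The balance of the alpha4 and beta1 transcripts was followed within each library, since TPM is per length and a ratio of 2 genes in 1 library does not depend on library scaling. This ratio was added after the counts of Itga5 were seen, because the planned ratio of Itga4 to Itga5 could not be formed with Itga5 at 0 or 1 count. Itga4 TPM was 19.3, 18.8 and 18.6% of Itgb1 TPM in mutant+E2+ALA libraries, 31.0, 29.8 and 30.0% in mutant+E2, 4.57, 4.55 and 5.05% in WT+E2 and 28.5, 29.6 and 28.2% in untreated WT libraries. Mutant+E2 cells held the highest share, and WT+E2 cells the lowest by a wide gap. The mean was 18.9 ± 0.399%, 30.3 ± 0.651%, 4.72 ± 0.282% and 28.8 ± 0.705% in the same order (SD, n = 3 each).

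On the log2 scale this ratio differed by -2.61 between WT+E2 and untreated WT cells. It was 2.68 higher in mutant+E2 than in WT+E2 cells, differed by -0.68 between mutant+E2+ALA and mutant+E2 cells, and was 2.00 higher in mutant+E2+ALA than in WT+E2 cells. In each of these 4 comparisons the libraries of one group lay wholly above those of the other, and an exact two-sided permutation test gave p = 0.1, the smallest that 3 against 3 libraries allow, before and after adjustment over the 4.

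**Figure D3:**
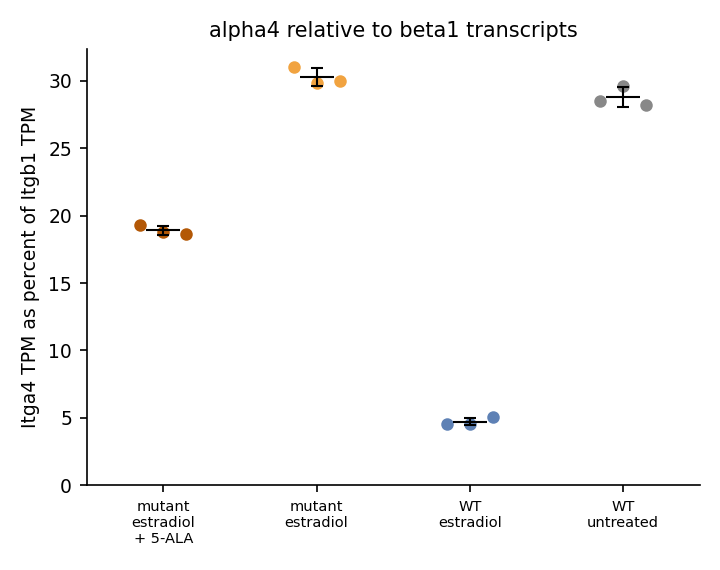
Itga4 TPM as a percentage of Itgb1 TPM in the same library, by group (points are libraries, bars the mean and SD, n = 3 per group). WT+E2 cells lie near 5%, and the other groups between 18.6 and 31.0%.

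Levels of different members were compared by TPM, within a group. Cd47 ranked first in every estradiol group, with means of 478 TPM in mutant+E2+ALA, 537 TPM in mutant+E2 and 500 TPM in WT+E2 cells, followed by Cd24a (356, 348 and 311 TPM) and Itgb1 (126, 137 and 177 TPM). In untreated WT cells Cd24a led with 271 TPM, above Cd47 with 197 TPM and Itgb1 with 185 TPM. Cd44 and Itga4 came next in untreated WT cells, at 58.1 and 53.1 TPM.

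In the estradiol groups Itga4 ranked above Cd44: 23.9 against 5.81 TPM in mutant+E2+ALA, 41.3 against 5.13 TPM in mutant+E2 and 8.35 against 2.56 TPM in WT+E2 cells. Cd9, at 3.27, 3.51, 4.46 and 2.14 TPM in the 4 groups, ranked above Cd44 in WT+E2 cells only. Neighbours in these orders did not overlap across libraries, except Cd44 and Cd9 in mutant+E2 cells, and Itga5 and Cd36 at the bottom of each group. The level of Cd9 is that of its retained-intron form.

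The deposited abundance-weighted transcript length moves when the mix of a gene's transcripts changes. For Cd47 it was 1994, 1981 and 2009 bases in mutant+E2+ALA libraries, 2104, 2099.9 and 2143 bases in mutant+E2, 1903, 1858 and 1891 bases in WT+E2 and 2214, 2125 and 2229 bases in untreated WT libraries. No groups overlapped in the 4 comparisons: WT+E2 differed from untreated WT by -13.9%, mutant+E2 was 12.3% above WT+E2, mutant+E2+ALA differed from mutant+E2 by -5.71%, and mutant+E2+ALA was 5.88% above WT+E2. Each gave p = 0.1 by the exact two-sided permutation test, the smallest possible with 3 against 3. Lengths were tested in 4 comparisons for each of 5 members, and with this smallest p none could pass an adjustment.

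Cd47 has 2 transcripts in the deposited data, which need not be all those of GENCODE M21. By GENCODE M21 they are a long one (5250 bases), whose last exon runs to position 49915010, and a short one (1175 bases). If only these contributed, the lengths correspond to a long share of 20.1 ± 0.351% in mutant+E2+ALA, 23.1 ± 0.608% in mutant+E2, 17.4 ± 0.569% in WT+E2 and 24.9 ± 1.40% in untreated WT cells (SD, n = 3 each). The long form then averaged 96.3 ± 3.46, 124 ± 1.00, 87.0 ± 1.11 and 49.0 ± 0.737 TPM, and the short form 382 ± 15.1, 413 ± 16.5, 413 ± 12.5 and 148 ± 9.29 TPM in the same groups. On the TPM scale the long form was thus more abundant in mutant+E2 than in WT+E2 cells. The short form had the same mean in both. The median of all genes was itself 0.12 higher in mutant+E2 cells on the log2(TPM + 1) scale. With TMM-scaled TPM, total Cd47 differed by -0.08, so the equal means do not show an unchanged short form. The long share, taken within each library, does not carry that shift. These forms are derived from the deposited length, and their TPM carry the shift of the TPM scale between groups described for Itgb1 and Cd24a. The annotation behind the deposited lengths was not M21 throughout. Itga5 and Cd24a, with 1 transcript each, had 4379 and 1813 bases, against 4382 and 1816 in M21. Cd36 averaged 3488 bases in untreated WT cells, above the longest M21 length of its 4 deposited transcripts (3399). The shares and levels of the Cd47 forms are therefore approximate.

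**Figure D4:**
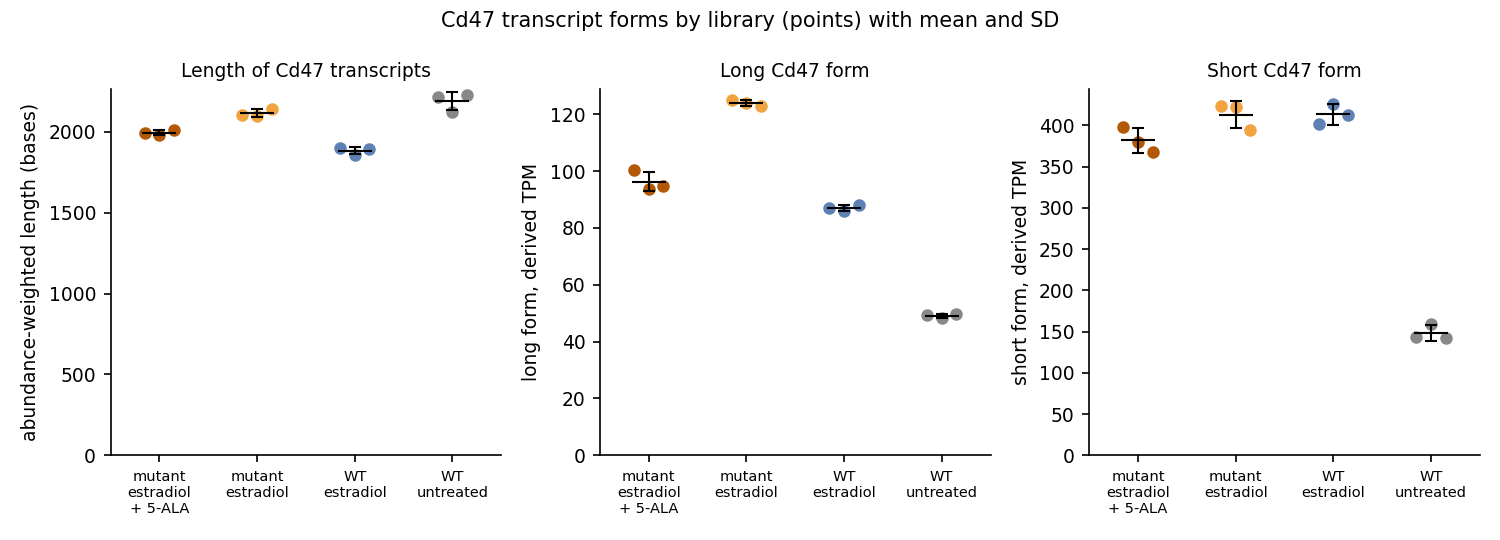
Deposited mean length of Cd47 transcripts in bases (left) and the TPM of the long and short forms derived from it (middle and right), by library with mean and SD (n = 3 per group). On the TPM scale, not scaled by TMM, the long form sits at 123 to 125 TPM in mutant+E2 and 85.8 to 88.0 TPM in WT+E2 libraries. The short form overlaps between these groups on that scale.

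Some groups also lay apart in the lengths of other members. Cd44, with 9 transcripts in the deposited data, averaged 3521 ± 148 bases in mutant+E2+ALA, 3827 ± 111 in mutant+E2, 3439 ± 365 in WT+E2 and 3825 ± 9.26 in untreated WT cells (SD, n = 3 each). Its groups overlapped except mutant+E2+ALA against mutant+E2 (exact permutation p = 0.1, the smallest possible). Itgb1 averaged 3568 ± 27.0, 3616 ± 13.2, 3529.5 ± 28.6 and 3580.4 ± 34.7 bases in the same groups, differences of at most 2.45%. Its groups lay apart in mutant+E2 against WT+E2 (longer) and in mutant+E2+ALA against mutant+E2 (shorter), with exact permutation p = 0.1 each, and overlapped in the other comparisons. The largest difference of Itga4 was -2.41%, between mutant+E2+ALA and WT+E2 cells, where its groups lay apart (exact permutation p = 0.1), and they overlapped in the other comparisons. Cd24a had 1 length, 1813 bases, in every library.

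For each tested member the 2 genes with the most similar course over the 4 group means were found among 7692 genes of at least 10 CPM, by the root mean square difference of centred log2 CPM. Itga4 was nearest to Steap3, a ferrireductase of endosomes (0.166), and Tmco4 (0.176). Steap3 averaged 29.0 CPM in mutant+E2+ALA, 31.9 CPM in mutant+E2, 8.79 CPM in WT+E2 and 48.5 CPM in untreated WT cells. Cd44 was nearest to Cenpn, a centromere protein (0.127), and Myo5a, an unconventional myosin (0.136).

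The other tested members had closer neighbours. Cd47 was nearest to Uvrag (0.0169), which acts in autophagy, and Tmf1 (0.0226), Cd24a to Cep70 (0.0253) and Tmem65 (0.0288), and Itgb1 to 1110059E24Rik (0.00771) and Elavl1 (0.0238), an RNA-binding protein. Cd9 was nearest to Ube4b (0.0212) and Ltbp1 (0.0341). Among the members themselves, the closest pair was Cd47 and Cd9 (0.316), and Cd44 and Itga4, which both fell with estradiol in WT cells, were 1.14 apart. With 4 points per gene, likeness describes these groups only. The group means of Cd9, 0.862 to 2.18 CPM, lay below the limit of 10 CPM set for the compared genes. Its mutant+E2 libraries alone ran from 0.943 to 2.48 CPM, so its likeness to any gene is uncertain.

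Other integrin chains were followed as a list. Beside the counts of this list and those below stand the shares of all tested genes called. They were 89.7% in WT+E2 against untreated WT and 68.8% in mutant+E2 against WT+E2 cells. For mutant+E2+ALA they were 42.6% against mutant+E2 and 62.3% against WT+E2 cells. Counts near these shares say little about a list. The shares called higher and lower are given with the members above. Of 16 other alpha chains 8 were tested, and 3 were called higher and 4 lower in WT+E2 against untreated WT cells (median log2 -0.31). Itgal, the alpha chain of LFA-1, averaged 2.08 ± 0.496 CPM in WT+E2 and 151 ± 2.36 CPM in untreated WT cells (log2 -6.16). Its partner Itgb2 averaged 51.8 ± 1.83 CPM in WT+E2 cells and 46.8 ± 0.128 CPM in untreated WT cells. Itgb7, which also pairs with alpha4, fell with it to 5.82 ± 0.798 CPM in WT+E2 cells, against 16.1 ± 1.43 CPM in untreated WT cells (log2 -1.47).

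Itgb3, the partner of the alphaIIb and alphaV chains, rose to 1784 ± 12.6 CPM in WT+E2 cells, against 87.9 ± 1.78 CPM in untreated WT cells (log2 4.34), while Itga2b fell (log2 -1.52) and Itgav rose (log2 1.00). In mutant+E2 against WT+E2 cells, 1 of the 8 alpha chains was called higher and 2 lower (median -0.14), and Itgb3 was lower, at 391 ± 8.11 CPM in mutant+E2 and 1784 ± 12.6 CPM in WT+E2 cells (log2 -2.19), the opposite of Itga4. Itgb7 was higher (log2 0.74), as was Itgb2 (log2 0.98). With 5-ALA, Itgb3 was higher, at 687 ± 8.67 CPM in mutant+E2+ALA and 391 ± 8.11 CPM in mutant+E2 cells (log2 0.81), and of the alpha chains 2 were called higher and 2 lower (median 0.18). In mutant+E2+ALA against WT+E2 cells 2 alpha chains were higher and 2 lower (median 0.09). Of the 3 tested beta chains of 7, 2 were higher and 1 lower in WT+E2 against untreated WT (median 0.14), in mutant+E2 against WT+E2 (median 0.74) and in mutant+E2+ALA against WT+E2 cells (median 1.00), and all 3 were higher with 5-ALA (median 0.26).

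Of 22 genes that activate integrins or link them to actin, 19 were tested. In WT+E2 against untreated WT cells 12 were called higher and 6 lower (median log2 1.00). Over all tested genes 43.3% were called higher and 46.4% lower there, with a median of -0.03. The shares of all tested genes called were 89.7, 68.8, 42.6 and 62.3% in the 4 comparisons in the order above. Fermt3, the kindlin of blood cells that activates integrins, rose to 1355 ± 9.15 CPM in WT+E2 cells, against 256 ± 4.02 CPM in untreated WT cells (log2 2.40). Apbb1ip, which brings Rap1 to talin, fell (log2 -3.70), as did Tln2, a talin (log2 -4.26). In mutant+E2 against WT+E2 cells 6 were higher and 11 lower (median -0.28), and Rap1b, a small GTPase of integrin activation, averaged 126 ± 4.85 CPM in mutant+E2 and 431 ± 2.76 CPM in WT+E2 cells (log2 -1.78). With 5-ALA against mutant+E2 alone 10 were higher and 3 lower (median 0.16), and against WT+E2 4 were higher and 8 lower (median -0.05).

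Membrane partners of CD44 and CD47 formed a list of 12 genes, all tested. In WT+E2 against untreated WT cells 4 were called higher and 6 lower (median log2 -0.15). The counts of this list stand beside 89.7, 68.8, 42.6 and 62.3% of all tested genes called in the 4 comparisons. Slc4a1, band 3 of the complex that holds CD47, averaged 2821 ± 11.2 CPM in WT+E2 and 7.10 ± 0.848 CPM in untreated WT cells (log2 8.61), a larger rise than that of Cd47. In mutant+E2 against WT+E2 cells 9 were higher and 2 lower (median 0.18). There Slc4a1 was lower (log2 -1.52), while Rhag, of the Rh complex, was higher, at 20.7 ± 0.730 CPM in mutant+E2 and 4.61 ± 0.289 CPM in WT+E2 cells (log2 2.16). Ezr, which links CD44 to actin, was also higher, at 358 ± 2.60 CPM in mutant+E2 and 169 ± 5.34 CPM in WT+E2 cells (log2 1.09). With 5-ALA 4 were higher and 5 lower than in mutant+E2 cells (median 0.02), and 7 were higher and 2 lower than in WT+E2 cells (median 0.15).

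Of the 15 ligands and counter-receptors of the members 5 were tested. In WT+E2 against untreated WT cells 3 were called higher and 1 lower (median log2 0.56). Over all tested genes, 89.7, 68.8, 42.6 and 62.3% were called in the 4 comparisons. Icam4, an erythroid ligand of integrins that holds erythroblasts to macrophages, averaged 23.9 ± 0.938 CPM in WT+E2 and 5.50 ± 0.767 CPM in untreated WT cells (log2 2.09). It was higher again in mutant+E2 cells, at 53.0 ± 2.27 CPM (log2 1.15 against WT+E2). In that comparison 2 of the 5 were higher and 2 lower (median -0.21), with 5-ALA none was higher and 1 lower than in mutant+E2 cells (median -0.12), and 2 were higher and 1 lower than in WT+E2 cells (median -0.23). Of 18 other adhesion receptors found in the tables, among them Icam4 again, 13 were tested. In the 4 comparisons in the same order, 5, 6, 4 and 6 were higher and 8, 2, 4 and 2 lower (medians -0.69, 0.36, -0.02 and 0.16).

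Of 24 other tetraspanins, the family of Cd9, 14 were tested. In WT+E2 against untreated WT cells 5 were called higher and 7 lower (median log2 -0.31). Again the shares of all tested genes called were 89.7, 68.8, 42.6 and 62.3% in the 4 comparisons. Tspan33, a tetraspanin of erythroid progenitors, rose to 257 ± 1.65 CPM in WT+E2 cells, against 31.3 ± 1.22 CPM in untreated WT cells (log2 3.04), and Cd81 rose to 180.5 ± 3.44 CPM in WT+E2 cells, against 43.3 ± 0.507 CPM in untreated WT cells (log2 2.06). In mutant+E2 against WT+E2 cells 4 were higher and 3 lower (median 0.04). With 5-ALA 1 was higher and 4 lower than in mutant+E2 cells (median -0.01), and 5 were higher and 4 lower than in WT+E2 cells (median 0.09). Of 12 scavenger receptors and fatty acid genes, which are functional relatives of Cd36, 7 were tested. In the 4 comparisons 3, 3, 1 and 3 were higher and 4, 2, 2 and 2 lower (medians -0.44, 0.08, -0.03 and 0.22), with Scarb1, a scavenger receptor for lipoproteins, at 8.18 ± 0.801 CPM in WT+E2 and 62.1 ± 1.43 CPM in untreated WT cells (log2 -2.94).

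Surface markers that are used beside the adhesion molecules to stage erythroid cells gave 10 tested of 13. In WT+E2 against untreated WT cells 7 were called higher and 3 lower (median log2 1.47). Here too, 89.7, 68.8, 42.6 and 62.3% of all tested genes were called in the 4 comparisons. Kit, the stem cell factor receptor lost early in maturation, averaged 17.7 ± 0.539 CPM in WT+E2 and 534 ± 3.50 CPM in untreated WT cells (log2 -4.92). In mutant+E2 against WT+E2 cells 5 were higher and 5 lower (median -0.24). Kit was lower still in mutant+E2 cells, at 3.68 ± 0.738 CPM (log2 -2.30), whereas Itga4 and Cd44 were higher there. Tfrc, the transferrin receptor, averaged 725 ± 20.2 CPM in mutant+E2 and 1517 ± 24.9 CPM in WT+E2 cells (log2 -1.07). With 5-ALA 6 were higher and 3 lower than in mutant+E2 cells (median 0.39), with Tfrc among those higher at 1231 ± 21.1 CPM (log2 0.76), and 5 were higher and 4 lower than in WT+E2 cells (median -0.03).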

How the data were processed

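RNA of 12 libraries was made with a TruSeq RNA kit from TRIzol-purified total RNA, per the labels. Reads were handled with CASAVA 1.8.2, Bowtie 1.1.1 and RSEM 1.2.20, with mm10 as the build, per the submitters' processing notes, which give no roles. No annotation release or strand setting is given in the sources used here. The deposited tables hold, per the file headers, the authors' RSEM expected counts, TPM and abundance-weighted length of each of 25097 genes. Symbols and coordinates came from GENCODE M21 (GRCm38, mm10), which matched 24746 identifiers. No genome sequence was read.

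Expected counts were rounded, then filtered with filterByExpr by group (12115 genes kept) and scaled by TMM. The model of 4 group means was fitted over all libraries in edgeR 4.0.16 (R 4.3.3, robust quasi-likelihood). P-values were adjusted by Benjamini-Hochberg over the 12115 genes. The fit was also run on simulated counts with few genes changed, in 1 group only. With 42.6 to 89.7% of tested genes called here, that run does not test the scaling or the error rate in these data. Groups came from the titles. The common biological coefficient of variation was 0.0334, so small differences pass. Limma 3.58.1 and DESeq2 1.42.0 served alternatives, among them log2(TPM + 1) and log2(TPM + 0.1). Transcript lengths and the ratio of Itga4 to Itgb1 TPM were compared by exact permutation tests. The forms of Cd47 were solved from its mean length and the M21 lengths, which need not be those behind the deposited lengths.

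The members, gene lists, tests and alternatives were chosen with earlier results of these data known. Named genes were the 8 members, Alas2, for each member the 2 genes of most similar course, and from each list up to 4 called genes per comparison with the largest change and a mean of at least 1 CPM, of which the text gives some. Outside this rule, Gm26728 and Cerkl were named because they overlap a member, and Cd68, Marco, Cpa3, Mcpt8, Fcer1a, Tpsb2, Gp1bb and Pf4 as leading, absent or opposed genes of the marker lists, chosen after their values were seen. Of the listed genes named, Ezr, Fermt3 and Elavl1 have exons that overlap another gene of the tables, so their counts may be shared. Cd99 was not found in the tables. Values of some list members are left out. Libraries of the same replicate number in mutant+E2 and WT+E2 deviated together (correlations 0.354, 0.192 and 0.226), so the numbers pair these groups by the data. Between the mutant groups, replicates 1 and 3 deviated together (0.294 and 0.324) but replicate 2 did not (-0.0266). The remaining comparisons did not pair. No library duplicated another of its own group, and pairs between groups were not checked for this.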

Additional observations from a re-analysis of the deposited data

How the results depend on the processing

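Over the 4 comparisons, the numbers of members called and of genes called stayed within 1.5 times the values given under every alternative, and a replicate block (10832, 8245, 5032 and 7456 genes called, against 10864, 8334, 5163 and 7543; 8226 with 2 groups and the block for mutant+E2 against WT+E2, chosen after seeing the data) changed no call of a member. Between the mutant groups the numbers paired in part (correlations 0.294, -0.0266 and 0.324), and 4 of 6 libraries correlated best with their own number. In the remaining comparisons they did not pair (correlations -0.218 to 0.0744). There, 3 of 6 libraries correlated best with their own number between mutant+E2+ALA and WT+E2, and 0 of 6 between the WT groups. Of 362 values of single members under alternatives, 330 kept direction and side of the threshold.

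The scale of TPM shifts the median gene: on log2(TPM + 1) it was -0.23 for WT+E2 against untreated WT, 0.12 for mutant+E2 against WT+E2 and -0.15 for mutant+E2+ALA against mutant+E2. Called genes were then 40.6, 70.7 and 12.4% higher, against 48.3, 51.1 and 50.7% by edgeR. Signs turned for small differences. Itgb1 gave -0.06 for WT+E2 against untreated WT and -0.11 for mutant+E2+ALA against mutant+E2 with both pseudocounts, and Cd24a gave 0.16 for mutant+E2 against WT+E2. When TPM were scaled by TMM, Itgb1 gave 0.27 for WT+E2 against untreated WT, and Cd24a gave -0.02 for mutant+E2 against WT+E2. With TMM-scaled TPM, added after seeing the data, Cd47 gave -0.08 for mutant+E2 against WT+E2 (adjusted p = 0.0278 by limma, with 0.00086 to 0.039 over all alternatives), 0.02 for mutant+E2+ALA against mutant+E2 and -0.06 for mutant+E2+ALA against WT+E2, the last also -0.06 on both TPM scales and 0 with DESeq2 size factors or DESeq2. Cd9 ranged from -0.03 (without mutant+E2 replicate 3) to 0.64 (without mutant+E2 replicate 1) for mutant+E2+ALA against mutant+E2 when 1 library was left out. The cause of these turns was not tested. Itgb1 lost its call in mutant+E2+ALA against mutant+E2 with no filter on low counts (adjusted p = 0.207 by edgeR). A filter of 5 CPM in 3 libraries left Cd9 untested. The planned ratio of Itga4 to Itga5 could not be computed with Itga5 at 0 or 1 count. Depth limits Cd9, Itga5 and Cd36.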
